A study of Mus musculus with 2 samples.

Results

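The 8 genes described here are 7 genes of cytosolic translation elongation (Eef1a1, Eef1a2, Eef1b2, Eef1d, Eef1g, Eef2 and Eef2k) and Tpt1, which encodes translationally controlled tumour protein. They were chosen by name, by matching Ensembl gene identifiers to symbols, and all 8 were found among the 43346 genes of the gene tables. The rule used no measured value. The samples were 2 pools of forebrain from E16.5 embryos (16.5 days of gestation) of the B6NCrl mouse strain, with male and female embryos mixed and no treatment or genotype compared. The pool called replicate 2 came from 41 embryos, and the labels give no number for the pool called replicate 1. Total RNA of more than 200 nt was sequenced from 10 ng per library with spike-in RNAs added. With 1 group of 2 libraries no test between conditions was possible, so levels are given per library with their SD (n = 2) and no p-value.

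During elongation the GTP-bound carrier eEF1A brings each aminoacyl-tRNA to the ribosome, and the eEF1B complex reloads eEF1A with GTP. In that complex eEF1B2 and eEF1D are the exchange subunits and eEF1G is a scaffold. The GTPase eEF2 then moves the ribosome along the message, and eEF2 kinase, a calmodulin-dependent enzyme, phosphorylates eEF2 and slows this step. Tpt1 binds eEF1A and eEF1B and was named for the control of its own message by translation. Messages of this kind often begin with a C followed by a pyrimidine tract, the 5′ terminal oligopyrimidine (TOP) motif, through which mTOR signalling sets their translation. In rodents Eef1a2 is the carrier of adult neurons and muscle, and it replaces Eef1a1 there after birth.

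Levels are given in TPM, the share of transcripts scaled to a fixed sum per library, which is a level per length of transcript and can be compared between genes. The tissue label was checked with markers. All 6 forebrain markers, among them Neurod6 (389 and 489 TPM) and Tbr1 (35.1 and 42.3 TPM), were above 10 TPM in both libraries. Gene counts summed to 31211128 in replicate 1 and 26957198 in replicate 2, and spike-ins took 5.93% and 4.10% of TPM. The libraries differed well beyond counting noise, with a chi-square per degree of freedom of 18.5 over genes, so they were kept as separate samples. Erythroid markers summed to 65.8 and 77.3 TPM, with 5 of 6 at 1 TPM or more and none at 0 in both.

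Because the family is known for this motif, the tracts near the transcript starts are shown first. The sequences are the GENCODE M21 transcripts on GRCm38 (mm10), read 5′ to 3′ on the strand of the gene. In the 3 lines that follow the pyrimidine run is in capitals, and it is the longest run led by a C in the first 100 bases of the transcript for Eef1b2-209 and Eef1a1-201. Eef1b2-209 and Tpt1-206 are shown from base 1 (chr1 63177130, plus strand, and chr14 75845331, plus strand). Eef1a1-201 is shown from base 54.
Eef1b2-209: CTTTTTTTCCCTCagcgctggccg
Eef1a1-201: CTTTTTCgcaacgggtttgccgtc
Tpt1-206: CTTTTCCgcccgctcccccctccc

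Eef1b2-209 opened directly on its tract of 13 pyrimidines. The tract shown for Eef1a1-201 was 7 bases long and lay downstream of the annotated start. The RefSeq start of Eef1a1 is the same base as the start of Eef1a1-201 (chr9 78481724, minus strand). A C-led run of 10 pyrimidines spanned it, filling the 5 bases either side, so the leading C lay upstream of the start. Eef1a1-201 itself opens with 5 of these pyrimidines, and its first base is a T. Tpt1-206 is a retained-intron model that took 0.59% and 0.78% of Tpt1 TPM. The leading coding model of Tpt1, Tpt1-201, starts further upstream at chr14 75845093 with CCCagcatgccccgggcgcactat, where 3 pyrimidines open the transcript. A start at base 1 with a C and at least 4 further pyrimidines (C or T, sense strand, any annotated transcript) was found for 3 of the 8 genes, Eef1b2, Eef1d and Tpt1. Among the 8776 coding genes that reached 10 TPM in each library, 1032 had the same start (11.8%). A gene with more annotated transcripts has more chances of such a start, and Eef1b2, Eef1d and Tpt1 have 9, 18 and 8. The share over the 8776 genes was not matched for the number of transcripts. The transcript of Eef1d with such a start, Eef1d-217, was listed at 0 TPM in both libraries. A C-led run of at least 7 pyrimidines lay within the first 100 bases of the leading coding transcript for 6 of the 8 genes, against 34.5% of 8761 expressed genes. The exceptions were Eef2k-204, with a longest run of 6, and Tpt1-201, with 5. In RefSeq promoter windows (GRCm38.p6, 6 of the 8 genes matched, with 8 starts), a pyrimidine run of at least 5 bases within 10 bases of the start was present at 2 of 8 starts, against 34.4% of 32851 promoters. Within 5 bases it was present at 1 of 8 (16.1% of promoters) and within 20 bases at 4 of 8 (57.5%). The hits within 10 bases were Eef1a1 and Eef1a2, and the Eef1a2 run was not led by a C. Several of the 8 starts were of Eef2k. For Eef1b2 and Tpt1 these windows were not centred on the starts given above. That of Eef1b2 ended at chr1 63176880 and that of Tpt1 at chr14 75845305, upstream of the tracts of Eef1b2-209 and Tpt1-206. These letters describe annotated starts and were not compared with measured 5′ ends.

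The 8 genes spanned 4.90 to 3375 TPM, and together they made up 5195 TPM in replicate 1 and 5633 TPM in replicate 2. That was 0.642% and 0.681% of the TPM of all protein-coding nuclear genes. All 8 were above 1 TPM in both libraries and 7 were above 10 TPM. In bulk tissue a lower level can come from fewer cells of a type or from less RNA per cell, and the 2 cannot be told apart. In falling order of mean TPM the genes were Eef1a1, Tpt1, Eef2, Eef1b2, Eef1g, Eef1d, Eef2k and Eef1a2. For each pair of neighbours in that order, both libraries of the higher gene lay above both libraries of the lower one. The order holds for the deposited gene values. With protein-coding transcripts alone, Tpt1 had a mean of 119 ± 0.72 TPM, near Eef1d at 123 ± 9.91 TPM, and Eef1g lay above Eef1b2.

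**Figure D1:**
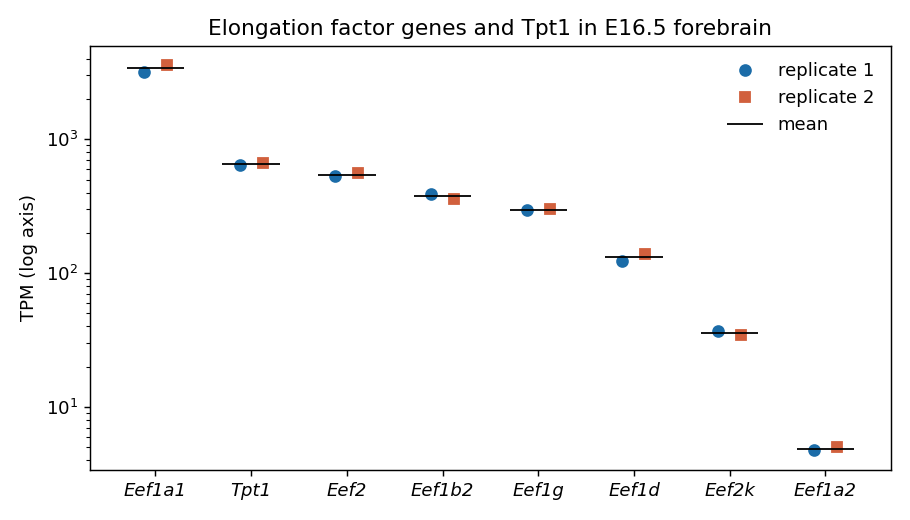
TPM of each gene (log axis) in replicate 1 (circles) and replicate 2 (squares), with a line at the mean of both libraries. The libraries lie close together for each gene, from Eef1a1 at 3178 and 3571 TPM down to Eef1a2 at 4.75 and 5.05 TPM.

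Eef1a1, the carrier of most dividing and embryonic cells, had 3178 TPM in replicate 1 and 3571 TPM in replicate 2, a mean of 3375 ± 278 TPM (SD, n = 2). It ranked 10 and 9 among 21461 protein-coding nuclear genes. Its estimated counts were 83557 and 80300. The gene (ENSMUSG00000037742) lies on the minus strand at chr9:78478449-78489151, and its leading coding transcript has 8 exons and 462 codons. Among protein-coding genes the closest in level, by the distance of log2(TPM + 1) over the 2 libraries, was Actg1, a cytoplasmic actin, with 3486 and 3537 TPM. Ppia, a prolyl isomerase, followed with 3024 and 3132 TPM, and Hbb-bs, an adult beta globin of blood, with 2692 and 3419 TPM. The values of Eef1a1 overlapped those of Actg1 and Hbb-bs, and both values of Ppia lay below both of Eef1a1.

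Eef1a2 had 4.75 TPM in replicate 1 and 5.05 TPM in replicate 2, a mean of 4.90 ± 0.21 TPM (SD, n = 2), from 177 and 158 counts. It ranked 10863 and 10698. The libraries were close, and the gene was detected well above 0 but near the middle of the list of protein-coding genes. Eef1a2 (ENSMUSG00000016349) lies on the minus strand at chr2:181147653-181157014, with 8 exons and 463 codons in its single annotated transcript. The nearest genes in level were Tbkbp1 (4.75 and 5.07 TPM), Nipal3 (4.79 and 5.04 TPM) and Apln (4.72 and 5.01 TPM). With so many genes at this level, the likeness over 2 libraries describes the level and no shared pattern.

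The Eef1a1 message exceeded that of Eef1a2 by 669-fold in the first library and by 707-fold in the second, and the mean log2 ratio was 9.43 ± 0.06 (SD, n = 2). Eef1a2 therefore made up 0.149% and 0.141% of the TPM of the eEF1A pair. The gap was far larger than the spread between the libraries. The ratio depended on the transcripts counted, and with protein-coding transcripts alone the log2 ratio was 9.06. Skeletal muscle is the other tissue known for Eef1a2. Its markers were low, but the highest, Acta1, was close to the level of Eef1a2 itself (4.75 and 5.05 TPM). Of 6 muscle markers, 2 reached 1 TPM in both libraries, Acta1 (5.31 and 5.57 TPM) and Mylpf (1.92 and 8.35 TPM), and none was at 0 in both. Their summed level was 7.51 and 15.9 TPM, and its part in the Eef1a2 level was not tested. Neuron markers were high, with all 6 above 10 TPM and sums of 3354 and 3198 TPM.

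How far the carrier genes differ in sequence bears on whether their reads can be told apart. Their coding bases were 79.9% identical over 1386 bases, with 278 mismatches. Of these, 225 (80.9%) fell on the last base of a codon. The first 60 coding bases are shown with each mismatch in capitals, and all 11 mismatches there fell on the last base of a codon.
Eef1a1: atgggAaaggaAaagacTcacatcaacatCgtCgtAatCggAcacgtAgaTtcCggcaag
Eef1a2: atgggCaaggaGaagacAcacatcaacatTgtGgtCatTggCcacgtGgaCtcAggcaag

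No stretch of 100 bases in the leading coding transcript of any of the 8 genes occurred in a transcript of another of them. For Eef1a2-201, 0 of 1985 such stretches occurred in a transcript of any other gene. A read of that length from Eef1a2 therefore matches no other annotated gene in full.

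**Figure D2:**
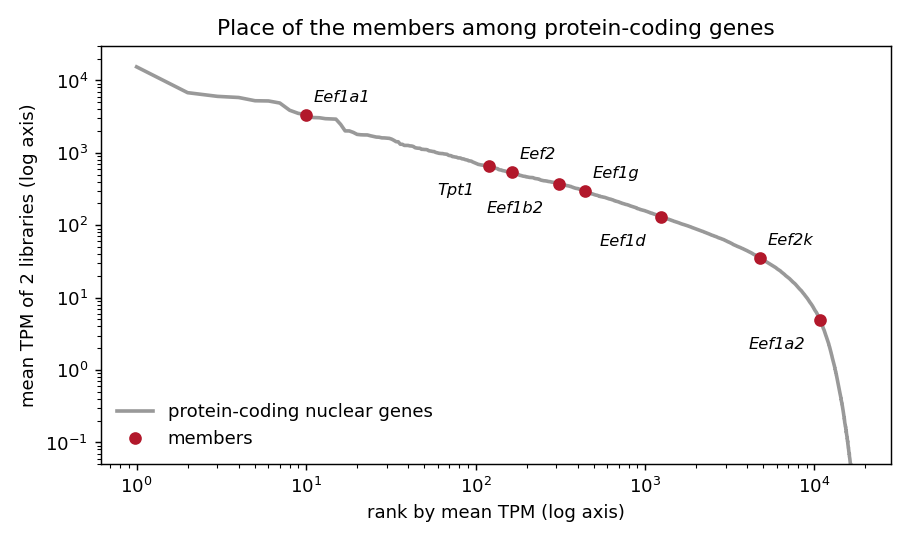
Mean TPM of the 21461 protein-coding nuclear genes by rank (grey line, both axes logarithmic), with the 8 genes as points. Eef1a1 sits at rank 10, 5 genes sit between ranks 120 and 1244, Eef2k is at 4768 and Eef1a2 at 10794.

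The 3 subunits of the eEF1B complex had unlike levels. Eef1b2, the alpha exchange subunit, had 392 TPM in replicate 1 and 358 TPM in replicate 2, a mean of 375 ± 24.4 TPM (SD, n = 2). Eef1g, the scaffold subunit, had 294 and 301 TPM, a mean of 297 ± 4.92 TPM. Eef1d, the delta exchange subunit, had 124 and 138 TPM, a mean of 131 ± 10.1 TPM. Eef1b2 held 46.6 ± 2.49% of the summed TPM of the 3, Eef1g 37.0 ± 1.05% and Eef1d 16.4 ± 1.44% (SD, n = 2). Eef1d was lower than Eef1b2 by a log2 ratio of -1.51 ± 0.20, in both libraries. Eef1g was lower than Eef1b2 by a log2 ratio of -0.33 ± 0.12, but this order turned with the transcripts counted. With protein-coding transcripts alone Eef1g was above Eef1b2, at 282 ± 6.91 against 222 ± 14.0 TPM.

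Eef1b2 (ENSMUSG00000025967, chr1:63176825-63180486, plus strand) was split among transcripts of different kinds. The coding transcript of 184 codons, Eef1b2-209, took 45.4% and 43.6% of the gene's TPM in replicates 1 and 2. Eef1b2-205, typed as a target of nonsense-mediated decay, took 31.9% in each library. A longer coding model of 225 codons, Eef1b2-204, took 13.9% and 15.9%. All models typed for decay held 33.7 ± 0.55% of TPM (SD, n = 2) and 26.8% and 25.2% of counts. Of the 592 stretches of 100 bases in Eef1b2-205, 96 occurred in no other transcript of the gene. The neighbouring gene Ndufs1, a complex I subunit with 4459 and 3771 counts, overlaps Eef1b2 on the opposite strand. Whether the counting used strand is not stated in the labels or headers, so reads in the overlap cannot be told apart.

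Eef1d (ENSMUSG00000055762, chr15:75894205-75909556, minus strand) codes for a short exchange factor and for a long form that is known from brain and testis as a heat-shock response regulator. The long coding models (over 500 codons, 3 annotated) held 34.1% and 30.2% of Eef1d TPM and 53.6% and 50.6% of its counts. Nearly all of this was Eef1d-204, with 660 codons and 42.3 and 39.8 TPM. The leading short models were Eef1d-207 (257 codons), with 24.1% and 29.1% of TPM, and Eef1d-201 (245 codons), with 16.4% and 18.4%. The long model differs from the short ones by an exon of 1130 bases at chr15:75902679-75903808 and one of 15 bases at chr15:75905886-75905900, neither of which Eef1d-207 or Eef1d-201 covers. Some annotated coding fragments of at most 500 codons do reach these exons, so the split by length is not a split by exon. Of the stretches of 100 bases in Eef1d-207, 0 of 797 were its own, so its share rests on how shared reads were divided. Naprt, with 92 and 58 counts, overlaps Eef1d on the same strand.

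Eef1g (ENSMUSG00000071644, chr19:8967041-8978479, plus strand) was carried almost wholly by one coding model. Eef1g-201, with 10 exons and 437 codons, took 94.4% and 95.5% of the gene's TPM. The models without a reading frame together took less than 6% in each library.

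**Figure D3:**
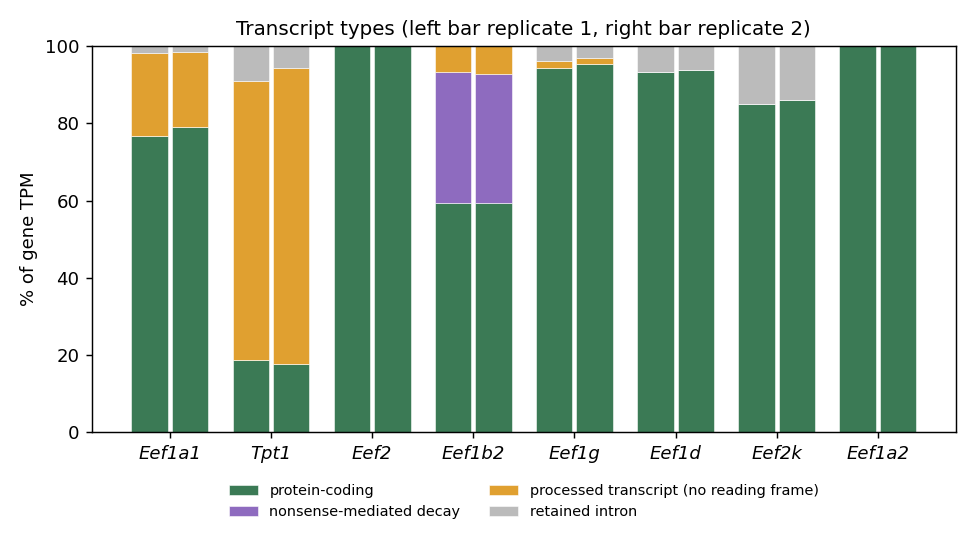
Percent of each gene's TPM by annotated transcript type, as stacked bars from 0 to 100% with replicate 1 on the left and replicate 2 on the right. Eef2 and Eef1a2 have a single transcript matched in the tables, so their bars are full by construction, and coding models hold 18.8% and 17.8% of Tpt1.

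Eef2, the translocase, had 528 TPM in replicate 1 and 558 TPM in replicate 2, a mean of 543 ± 21.2 TPM (SD, n = 2), with ranks of 166 and 158. The gene (ENSMUSG00000034994, chr10:81176631-81182498, plus strand) has 14 exons and 858 codons in Eef2-201, the single Eef2 transcript matched in the tables, so its share of 100% was fixed in advance. Eef1a1 exceeded Eef2 by 6.02-fold and 6.40-fold, a log2 ratio of 2.63 ± 0.06. Eef2k, its kinase, had 37.1 and 34.3 TPM, a mean of 35.7 ± 1.97 TPM. The Eef2 message was thus 14.3-fold and 16.3-fold above that of its kinase, a log2 ratio of 3.93 ± 0.14 (SD, n = 2).

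Eef2k (ENSMUSG00000035064, chr7:120842831-120907450, plus strand) was read mainly from 2 models that code for the same 724 codons and differ in length. Eef2k-204 took 46.2% and 57.0% of TPM, the largest gap between libraries among the leading transcripts of these genes. The longer model Eef2k-201 (6349 bases) took 24.9% and 23.8%. Eef2k-201 had 1081 and 803 counts and Eef2k-204 had 946 and 906, so their order by counts differed between the libraries. The short model Eef2k-209 took 11.3% and 3.59% of TPM from 8.14 and 2.02 counts, too few to fix its share.

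Tpt1 had 637 TPM in replicate 1 and 667 TPM in replicate 2, a mean of 652 ± 21.7 TPM (SD, n = 2), and ranked 120 in both libraries. It stood below Eef1a1 by a log2 ratio of -2.37 ± 0.07. Its nearest genes in level were Atp5a1, an ATP synthase subunit (628 and 668 TPM), Map1b, a neuronal microtubule protein (631 and 656 TPM), and Rps2, a ribosomal protein (656 and 676 TPM). The gene (ENSMUSG00000060126) lies on the plus strand at chr14:75845093-75848525, and Tpt1-201 has 6 exons and 172 codons.

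The Tpt1 level rested on how reads were divided, within the gene and with a pseudogene. The authors' tables gave 72.1% and 76.4% of Tpt1 TPM to Tpt1-204, a model of 661 bases with no annotated reading frame. The coding model Tpt1-201 took 18.7% and 17.8%, or 119 and 119 TPM. Of the bases of Tpt1-204, 92.7% lie in exons of Tpt1-201, and 46 of its 562 stretches of 100 bases occur in no other transcript of the gene. Eef1a1 showed a smaller case of the same kind. Its model Eef1a1-204 (505 bases, no reading frame, 90.9% of its bases in exons of Eef1a1-201) took 21.4% and 19.6% of TPM but 6.19% and 5.59% of counts. Shares between such nested models are estimates. The deposited posterior SD of the gene's estimated count was 1.04% and 1.06% of the count for Tpt1, and at most 0.024% for the other 7 genes.

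Processed pseudogenes, copies of a message inserted elsewhere in the genome, were searched by sequence (at least 80% identity over at least 50% of the pseudogene). Eef1a1 had 21 such copies in GENCODE M21, Eef1g 11, Tpt1 10, Eef2 6 and Eef1d 2, and none was found for Eef1b2, Eef1a2 or Eef2k. The search also found an unprocessed pseudogene of Eef1b2, Gm43712, which was not analysed further here. Tpt1 was the gene for which they held many counts. Tpt1-ps3 (chr6:99877816-99878334, minus strand, 519 bases) is identical to Tpt1 over its whole length, and all 420 of its stretches of 100 bases occur in Tpt1. The tables gave it 2315 and 2141 counts, and 294 and 323 TPM. The 7 Tpt1 copies matched to the tables held 22.5% and 23.6% of the counts of gene and these copies together. Nearly all lay in Tpt1-ps3, since Tpt1-ps6 had 0.81 and 0 counts. Reads from within this stretch cannot be assigned to one locus by sequence. With all of them counted to Tpt1 its level was 848 ± 36.7 TPM (SD, n = 2).

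For Eef1a1 the 10 of 21 copies that were matched to the tables held 288 and 312 counts. That was 0.343% and 0.387% of the counts of gene and matched copies together. Copies that were not matched are left out of this share. The matched copies with most were Gm13456 (204 and 235 counts), Gm6548 (28.7 and 31.2 counts) and Gm5822 (23.6 and 12.2 counts). Eef1g shared 49.4% of its stretches of 100 bases with other genes, all pseudogenes, more than Tpt1 (39.3%) or Eef1a1 (26.7%). Gm4366, of whose 1243 stretches 866 occur in Eef1g, was not matched to a row and is not analysed here, so the counts of the other copies do not bear on most of that sharing. The 6 matched copies held 10.0 and 8.88 counts, of which Gm5525 had 8.92 and 7.77 and Gm4462 had 1.12 and 1.11. The copies of Eef2 held 57.5 and 25.4 counts, led by Gm11400 (41 and 12 counts), Gm13050 (13.5 and 10.4 counts) and Gm12009 (2 in each library). Those of Eef1d, Gm12848 and Gm11675, held 2 counts in replicate 1 and 2.19 in replicate 2 together.

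**Figure D4:**
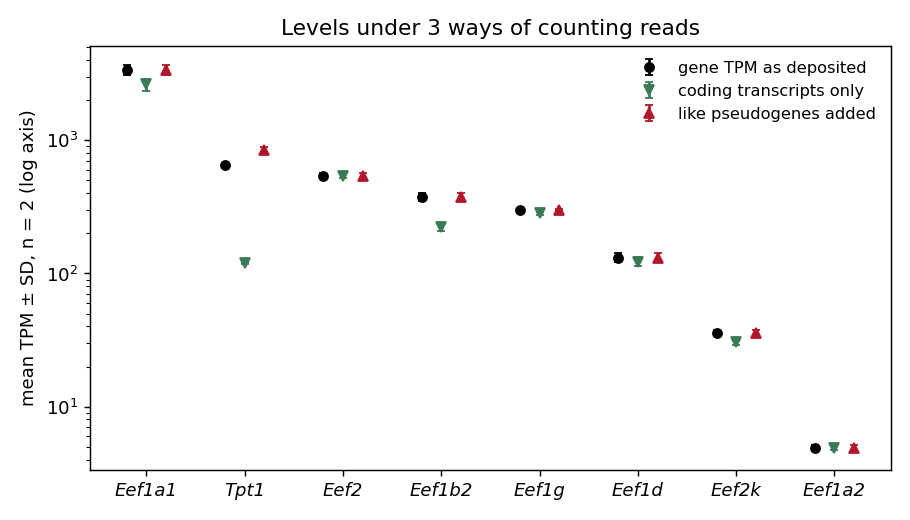
Mean TPM ± SD of the 2 libraries (log axis) from the deposited gene values (circles), from protein-coding transcripts alone (triangles down) and with the counts of like pseudogenes added (triangles up). Tpt1 spans 119 to 848 TPM over these ways of counting, while Eef2 and Eef1a2, with a single transcript matched in the tables, cannot move under the count of coding transcripts.

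The libraries were then set side by side as log2 of replicate 2 over replicate 1, from counts scaled by TMM (a trimmed mean of the ratios over genes), each with a 95% interval for counting error alone (exact Clopper-Pearson). A gene was called different at a 2-fold difference or more with an interval that left out equality. The comparison took in the 13929 genes whose mean count reached 50. Of these 191 were called, or 1.37% (0.366% higher in replicate 2 and 1.01% higher in replicate 1), and 0 of the 8 genes were called in either direction. The 8 values ran from -0.10 to 0.18 with a median of 0.03, beside a median of 0.02 over 12868 protein-coding genes. Of the 1650 protein-coding genes at 100 TPM or more, the central 95% ran from -0.28 to 0.26, and the values of all 8 genes fell within that range. Only 6 of the 8 are themselves at 100 TPM or more in both libraries, Eef2k and Eef1a2 being lower. Over the 12868 protein-coding genes the central 95% ran from -0.67 to 0.52. The coefficient of variation over the 2 libraries had a median of 4.92% among the 8 genes, 4.29% among the 1650 and 7.24% among the 12868.

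Intervals of 3 genes left out equality at this depth, and each of these differences was far below 2-fold. Eef1a1 was higher in replicate 2 by 0.18 (0.16 to 0.19), and Eef2 by 0.06 (0.04 to 0.09). Eef1b2 was lower in replicate 2 at -0.10 (-0.16 to -0.05). Tpt1 (0.03), Eef1g (0.02), Eef1d (0.03), Eef2k (-0.02) and Eef1a2 (0.07) had intervals that held equality, and that of Eef1a2 was widest, at -0.25 to 0.39. These intervals leave out biological spread, and the common biological coefficient of variation over genes with a mean count of 50 or more was 12.3%. The signs depended on the scaling. With 6 of 8 genes higher in replicate 2 by TMM, all 8 were higher when the counts were scaled to the spike-in RNAs, which moved every gene by 0.55. Marker genes differed between the same libraries, in both directions. Progenitor markers summed to 1671 and 2095 TPM, and by the scaled counts 6 of 6 were higher in replicate 2 (median 0.23), while Pax6 was lower there in TPM (35.1 and 33.9). By scaled counts 6 of 6 forebrain markers were higher in replicate 2 (median 0.23). Of the neuron markers 2 of 6 were higher (median -0.13), and the lowest values were those of Syp (-0.41) and Rbfox3 (-0.27). The 6 markers of meninges and connective tissue summed to 202 and 469 TPM, none was at 0, and Col1a1 (37.5 and 141 TPM) and Col1a2 (35.8 and 101 TPM), collagen chains, were called. Their part in the Eef1a1 and Eef1b2 differences was not tested.

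**Figure D5:**
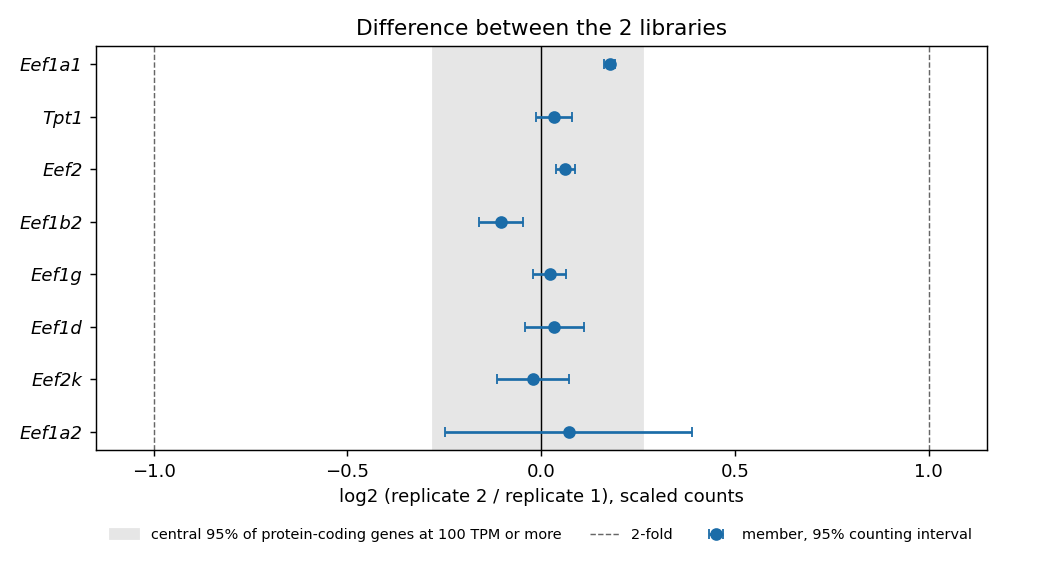
Log2 of replicate 2 over replicate 1 for each gene (points, with 95% counting intervals), beside the central 95% of protein-coding genes at 100 TPM or more (grey band) and 2-fold lines (dashed). All 8 points lie in the band, with Eef1a1 highest at 0.18 and Eef1b2 lowest at -0.10. Eef2k and Eef1a2 are below 100 TPM, and the interval of Eef1a2 reaches past the band.

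The genes around the 8 in the pathway were taken from fixed lists, and 0 genes of these lists were called different between the libraries. Over all 13929 genes compared 1.37% were called, so 0 calls in lists this small say little about the pathway. The list of elongation cofactors and modifying enzymes had 19 genes matched and a median of 25.2 TPM, and 18 of them reached 1 TPM in each library. The highest was Eif5a, the hypusine-bearing factor that helps the ribosome past difficult peptide bonds, at 978 ± 10.7 TPM (SD, n = 2). That was above Tpt1 and Eef2. The lowest was Eef1akmt3, a lysine methyltransferase of eEF1A, at 0.14 and 0.10 TPM. The second eIF5A gene, Eif5a2, had 6.94 and 7.91 TPM, a further pair with a dominant copy. The 5 mitochondrial elongation factors were all detected, from Gfm2 at 27.3 ± 2.17 TPM to Tufm, the mitochondrial counterpart of eEF1A, at 106 ± 0.21 TPM.

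The 8 termination and ribosome rescue factors were all at 1 TPM or more, with a median of 39.2 TPM. They ran from Pelo, which rescues stalled ribosomes, at 4.32 ± 0.07 TPM to its partner Hbs1l at 91.5 ± 6.23 TPM. All 29 genes of the initiation factor list were above 10 TPM, with a median of 143 TPM. The highest was Eif4g2 at 1071 ± 87.4 TPM and the lowest Eif4ebp1, an inhibitor of initiation, at 14.9 ± 1.23 TPM. The initiation factors had a median difference of 0.07 (log2, 24 of 29 higher in replicate 2), beside 0.02 over all protein-coding genes with 6873 of 12868 higher. No initiation factor reached the level of Eef1a1.

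Of the 10 regulators of eEF2 kinase, all were at 1 TPM or more, with a median of 35.5 TPM. Rptor, the mTORC1 scaffold, was the lowest at 8.26 ± 1.49 TPM. The 5 partners of Tpt1 ran from Mcl1, a survival factor, at 37.9 ± 3.32 TPM to Rheb, the GTPase that switches on mTORC1, at 236 ± 15.6 TPM. The 12 other messages known for a TOP start had a median of 296 TPM, from Eif3f at 70.0 ± 3.98 TPM to Hnrnpa1 at 795 ± 64.3 TPM. Of these 12, 11 were higher in replicate 2 by TMM, with a median difference of 0.12. Among all protein-coding genes compared, 6873 of 12868 were higher there, with a median of 0.02. Such signs depend on the scaling. That list shares 4 genes with the initiation factors and Vim with the progenitor markers, and Vim had 344 and 467 TPM.

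Of the 8 genes, Eef1a1, Eef1b2, Eef2 and Tpt1 are annotated as hosts of a small noncoding RNA. That is 4 of 8, beside 857 of 8776 protein-coding genes at 10 TPM or more (9.77%). The introns of Eef1b2 hold Snora41 (132 bases), which had 2 counts in each library, and Tpt1 holds Snora31 (130 bases), with 6 and 1. Snord37 in Eef2 (64 bases) had 0 counts in both. A count of 0 allows up to 3 counts, and these RNAs are shorter than the 200 nt size limit of the RNA used, so the tables say little about their level.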

How the data were processed

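Total RNA-seq gene and transcript tables of 2 libraries were used. Which aligner and quantifier made them, and whether strand was used, is not given here. Per the deposited notes, the authors made the expected counts (estimated reads per gene or transcript, not normalized) from alignments to mm10 with GENCODE M4 annotation, a table per library. Per the file headers, the authors also deposited TPM scaled over all features with spike-ins and tRNA genes, transcript shares in percent of the gene, posterior means and an SD of each count. TPM were used as deposited. Expected counts were rounded and scaled with TMM (edgeR 4.0.16, R 4.3.3), with a prior count of 0.5, and DESeq2 1.42.0 size factors served as an alternative. The calculation was tested on data simulated with counting (Poisson) noise alone, which leaves out the wider spread between these libraries. Depth was 31211128 and 26957198 counts, and intervals cover counting error only, since reads are not independent molecules. Whether the labelled biological replicates differ beyond the pool of embryos is not stated, so the SD measures the spread between these pools. Transcript types, sequences and coordinates came from GENCODE M21 (GRCm38), whose transcript lengths differ from M4 for some models, with sequence searches by blastn 2.17.0 and Python 3.11.15. No protein sequence was used. Genes named are the 8 members, the highest and lowest gene and any called gene of each fixed list, the 3 genes nearest in level to Eef1a1, Eef1a2 and Tpt1, and up to 3 pseudogenes of highest count per member. Other genes named (Eif5a2, Vim, Ndufs1, Naprt, Gm4366, Gm43712, the small RNAs and the quoted markers) were chosen after their values were seen. Not every item named by this rule is reported here. The members and lists were chosen with earlier results of these data known. Alternatives covered scaling, count minimum, pseudocount, posterior means, detection limit, start window and leaving out a library; counting coding transcripts alone, adding pseudogene counts, protein-coding genes alone and annotated transcript starts were chosen after seeing the data, as were the codon positions of mismatches and the runs in the first 100 bases.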

Additional observations from a re-analysis of the deposited data

How the results depend on the processing

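No paired analysis was possible because the study holds 1 group. The 0 calls among the 8 genes held under all 7 alternatives to the comparison of libraries. With 1.37% of 13929 genes called in the main comparison, 0 of 8 lies near the share over all genes and says little about these genes. Without either library in turn, levels, ratios and shares stayed within 1 SD, which holds by construction for 2 libraries. Mean TPM from protein-coding transcripts alone was 2629 for Eef1a1, 222 for Eef1b2, 282 for Eef1g, 30.5 for Eef2k and 119 for Tpt1. Scaled over Ensembl genes alone it was 5.16 for Eef1a2, 313 for Eef1g, 572 for Eef2 and 686 for Tpt1. The posterior mean gave 290 for Eef1g, and adding pseudogene counts gave 848 for Tpt1. As log2 ratios, a pseudocount of 1 gave 9.16 for Eef1a1 to Eef1a2. Counts not divided by length gave 8.94 for Eef1a1 to Eef1a2, 1.55 for Eef1a1 to Eef2, 3.23 for Eef1a1 to Eef1g, -0.81 for Eef1d to Eef1b2, -3.46 for Tpt1 to Eef1a1, and a turned sign of 0.81 for Eef1g to Eef1b2. Coding transcripts alone gave 9.06, 2.27, 3.22, -0.86 and -4.46 for the same 5 pairs, 4.15 for Eef2 to Eef2k and a turned sign of 0.35 for Eef1g to Eef1b2. Adding pseudogene counts gave -2.00 for Tpt1 to Eef1a1. Spike-in scaling called 536 of 13929 genes (515 higher in replicate 2), and a minimum of 20 counts called 471 of 15685 (135 higher). A minimum of 200 counts called 38 of 11353 (10 higher) and no minimum 1098 of 24579 (392 higher). With protein-coding genes alone 116 were called. Under spike-in scaling the differences were 0.73 for Eef1a1, 0.63 for Eef1a2, 0.45 for Eef1b2, 0.59 for Eef1d, 0.58 for Eef1g, 0.62 for Eef2, 0.53 for Eef2k and 0.59 for Tpt1. Beyond what each way of counting changes by construction, the cause was not tested. With 177 and 158 counts, Eef1a2 had the widest counting interval of the 8 genes, -0.25 to 0.39.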
